A study of Mus musculus with 5 samples.

Results

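The replication-dependent histone genes code for the histone proteins that package newly made DNA. They were taken as every gene whose name begins with Hist1h, Hist2h, Hist3h or Hist4h, which gave 70 of the 38924 genes in the table. The table writes names in capitals (HIST1H1E for Hist1h1e). There were 6 linker H1 genes, 20 H2A, 19 H2B, 12 H3 and 13 H4 genes. In the mouse, 56 of them lie in cluster 1 on chromosome 13, 10 in cluster 2 on chromosome 3, 3 in cluster 3 on chromosome 11, and Hist4h4 alone on chromosome 6. The name rule also takes in genes that are not typical of the family. Hist1h1t and Hist1h2ba are known as testis forms, and the GENCODE M21 annotation lists Hist1h2aj, Hist1h2al and Hist3h2bb-ps as pseudogenes.

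RNA was sequenced from germinal center B cells of the spleen, sorted by flow cytometry from 12-week-old mice on day 7 after immunization with sheep red blood cells. In the DKO group (2 libraries) both alleles of Relb and of Nfkb2 were floxed and the mice carried Cγ1-Cre. The WT group (3 libraries) consisted of Cγ1-Cre littermates, so Cre was present in both groups. Cγ1-Cre is expressed in B cells that have begun to transcribe the Cγ1 heavy-chain locus, which limits deletion to those cells. The series title names the sorted cells as eGFP-positive. Relb and Nfkb2 encode the NF-κB subunits of the alternative pathway, and the comparison asks what their loss does in these cells. The labels do not say whether libraries came from separate animals, so a p-value measures only the spread between these samples.

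During S phase a cell must double its histones along with its DNA, and most of that supply comes from these clustered genes. Their mRNAs are unusual in having no introns and no poly(A) tail. They end instead just after a short stem-loop, which is bound by the stem-loop binding protein SLBP and governs processing, translation and rapid decay when DNA synthesis stops. The core histones H2A, H2B, H3 and H4 form the nucleosome, and H1 binds the linker DNA where it enters and leaves. Germinal center B cells divide very fast.

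The stem-loop is shown because it is the feature that sets these mRNAs apart from others. An exact form was found in the longest annotated transcript of 43 of the 70 genes. The rule took 16 bases that begin with GG, in which 6 bases on each side pair fully around a loop of TTTN. The other 27 transcripts held no such exact match, which says only that these letters are not in that transcript model. The sequences below are written as DNA from 5′ to 3′ as read from the GENCODE M21 transcripts, with the 4 loop bases in capitals. The commonest form was found in 25 genes, among them Hist1h1e and Hist1h1c. The next was found in 7 H4 genes, among them Hist1h4d and Hist1h4h. The last was found in 6 genes, among them Hist1h3e and Hist1h2bb.
Commonest form: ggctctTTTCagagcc
H4 form: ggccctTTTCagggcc
Form with A in the loop: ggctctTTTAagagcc
The H4 form differs in the paired stem, and was found in no gene of another class. The third differs from the commonest in the last loop base alone.

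Promoters of 3 highly counted members are shown because their motifs differ by class. RefSeq (GRCm38.p6) gave a promoter for 62 of the 70 genes, with 63 promoters in all. Each was searched on both strands for the TATA box TATAAA, the CCAAT box, the octamer ATTTGCAT, the run AACACAAA and GGTCCG. The last is an H4 element that was added after a promoter had been read. The 250 bases upstream of the start are printed on the gene's strand with matches in capitals, and ATTGG is CCAAT on the other strand. In the printed sequences no match overlaps another. GRCm38.p6 is another build than mm9, which the authors used. Hist1h1e lies at chr13:23622559-23622808 on the minus strand, Hist1h2bm at chr13:21721794-21722043 on the plus strand, and Hist1h4d at chr13:23581318-23581567 on the plus strand.
Hist1h1e: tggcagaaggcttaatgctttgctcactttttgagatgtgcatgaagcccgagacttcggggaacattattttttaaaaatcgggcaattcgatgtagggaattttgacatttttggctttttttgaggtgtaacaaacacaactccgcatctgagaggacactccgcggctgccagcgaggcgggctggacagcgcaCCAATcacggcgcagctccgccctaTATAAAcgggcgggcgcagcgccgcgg
Hist1h2bm: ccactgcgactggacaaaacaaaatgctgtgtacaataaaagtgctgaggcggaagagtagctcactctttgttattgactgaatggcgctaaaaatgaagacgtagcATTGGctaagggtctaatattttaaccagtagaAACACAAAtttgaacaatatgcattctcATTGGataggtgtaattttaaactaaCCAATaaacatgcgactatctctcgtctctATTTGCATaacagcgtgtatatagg
Hist1h4d: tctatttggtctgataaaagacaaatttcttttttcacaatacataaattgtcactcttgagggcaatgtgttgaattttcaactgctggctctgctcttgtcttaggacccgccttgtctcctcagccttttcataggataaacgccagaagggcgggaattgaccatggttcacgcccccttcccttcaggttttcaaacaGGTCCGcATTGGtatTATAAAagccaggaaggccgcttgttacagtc
CCAAT was found in 85.7% of histone promoters, against 37.4% of all 32851 promoters of 300 bases. It was present in all 6 H1, all 18 H2A, all 17 H2B and all 10 H3 promoters, and in 3 of 12 H4 promoters. TATAAA was found in 55.6%, against 13.6% of all promoters, in 4 of 6 H1, 11 of 18 H2A, 8 of 17 H2B, 4 of 10 H3 and 8 of 12 H4 promoters. The octamer was found in 7 of 18 H2A and 7 of 17 H2B promoters and in none of the other classes, with 22.2% over the family against 1.74% of all promoters. GGTCCG was found in 11 of 12 H4 promoters, in 1 H2B and in 1 H3 promoter, which made 20.6% against 8.25%. The run AACACAAA was found in 4.76% of histone promoters, against 1.69% of all. It was in 1 of 6 H1, 1 of 18 H2A and 1 of 17 H2B promoters, and not in the upstream bases of Hist1h1e printed here. Only this exact run was searched, so the count says nothing of similar runs. A match describes the letters and is not evidence of a bound site.

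The deposited values are read counts divided by 1 factor per library, called normalized counts here. The libraries held 33953377 to 57582464 reads. Mitochondrial ribosomal RNA took 62.4%, 51.6% and 70.9% of reads in WT replicates 1, 2 and 3, and 47.0% and 60.6% in DKO replicates 1 and 2. Relb had 136, 171 and 117 normalized counts in the WT libraries and 56.9 and 10.7 in DKO. Nfkb2 had 657, 601 and 445 in WT and 298 and 73.5 in DKO, so DKO replicate 1 was closer to WT for both genes. Of 11 germinal center markers 10 were tested, and 9 had a negative fold change in DKO (median -0.15). Rgs13 among them had 8381, 3777 and 4727 normalized counts in the WT libraries and 1476 and 1990 in DKO, a log2 fold change of -1.63 ± 0.33 with an adjusted p of 0.768 by limma and 0.0013 by DESeq2. Bcl6 had 9681 to 11763 over the 5 libraries, and Mef2b was listed at 0 in each. Rgs13, Bcl6 and Mef2b were named after their values were seen. The summed level of 11 T cell markers was 110, 1372 and 73.0 in WT and 581 and 138 in DKO. That of the naive B cell list was 7815, 22919 and 11804 in WT and 20150 and 9869 in DKO. WT replicate 2 and DKO replicate 1, which had the lowest histone levels, were the highest for both lists.

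The histone genes together were as high in DKO replicate 2 as the WT mean and lower in DKO replicate 1. The summed level of the 70 genes was 80361, 67626 and 104690 normalized counts in the WT libraries and 59549 and 84165 in DKO. The mean was 84225 ± 18832 (SD, n = 3) in WT and 71857 ± 17406 (SD, n = 2) in DKO, which is 85.3% of WT. DKO replicate 1 stood at 70.7% of the WT mean and DKO replicate 2 at 99.9%. The groups overlapped, and the gap between the 2 DKO libraries, 1.41-fold, was larger than the gap between the group means. Within WT the highest library was 1.55-fold above the lowest. As a share of reads outside the mitochondrial genome, the histone genes took 0.488%, 0.424% and 0.704% in WT and 0.384% and 0.579% in DKO, with the same overlap. In bulk RNA, fewer cells in S phase and less histone RNA per cell cannot be told apart.

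**Figure D1:**
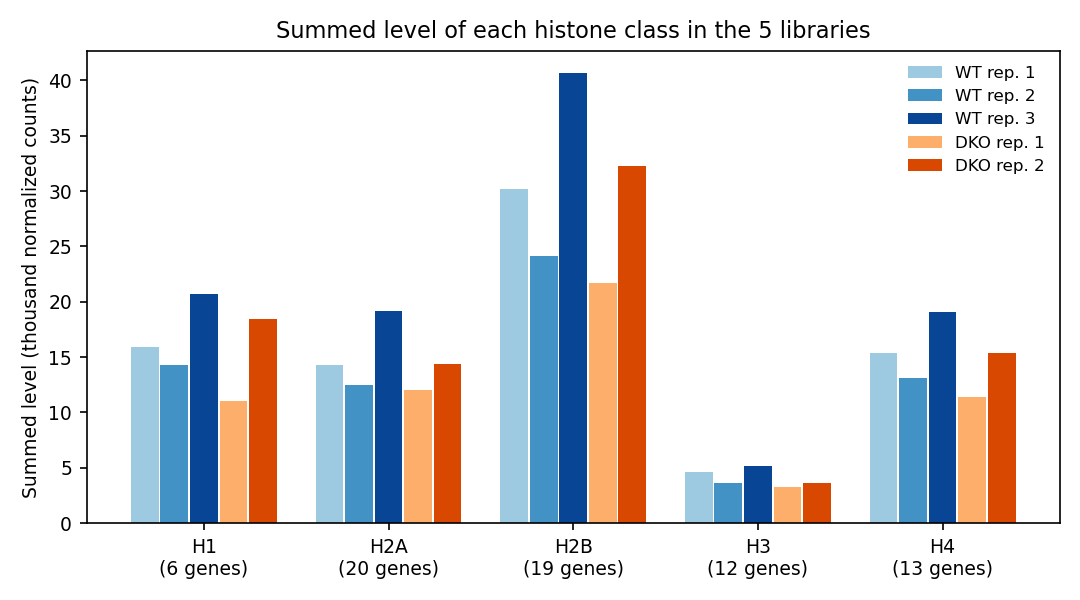
Summed normalized counts (in units of 1000) of the genes of each histone class, 1 bar per library, with no error bar since each bar is a single library. In every class WT replicate 3 is the highest bar and DKO replicate 1 the lowest, and DKO replicate 2 lies within the WT range in all 5 classes.

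Each class kept much the same share of the histone total in every library. H2B genes took 35.6 to 38.8% of the summed level, H1 18.6 to 21.9%, H4 18.2 to 19.4%, H2A 17.1 to 20.3% and H3 4.35 to 5.78%. A few genes carried most of it, since the 22 members with a mean of at least 1000 held 89.5% of the summed level. The DKO mean was 87.0% of WT for H1, 86.3% for H2A, 85.4% for H2B, 84.7% for H4 and 77.5% for H3. In each class DKO replicate 1 was the lower of the 2 DKO libraries.

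No histone gene passed the test between DKO and WT. Of the 70 genes, 59 reached the minimum mean of 10 normalized counts over all libraries (6 H1, 14 H2A, 16 H2B, 10 H3 and 13 H4). Just above that minimum stood Hist1h1t, with a mean of 20.4, and just below it Hist3h2bb-ps, with 8.60. By limma on log2(value + 1), with Benjamini-Hochberg adjustment over 13242 genes, 0 of the 59 had an adjusted p under 0.05, against a background of 0.0% of all genes. The smallest adjusted p of a member was 0.823 by limma, 0.856 by edgeR and 0.627 by DESeq2, and neither count-based tool called a member. At an unadjusted p under 0.05, 3 of 59 were lower in DKO (5.08%, against 2.37% of all genes) and 0 were higher (3.69% of all genes). The groups did not overlap for 5 of 59 genes that were lower in DKO (8.47%, against 11.0% of all genes) and for 0 that were higher (12.5%).

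The fold changes of the family were mostly negative, but that direction rested on single libraries. The log2 fold change was below 0 for 45 of 59 genes (76.3%, against 50% of all genes), and the median was -0.21 against 0.00 for all genes. Both all-gene values belong to the fit of all 5 libraries without a covariate, and not to the settings that follow. Without DKO replicate 1 it was below 0 for 28 of 59, with a median of 0.03. Without WT replicate 3 it was below 0 for 31 of 59, with a median of -0.01. The median was -0.40 without WT replicate 2, -0.28 without WT replicate 1 and -0.49 without DKO replicate 2. With the mitochondrial ribosomal RNA share of each library as a covariate, added after the data were seen, 23 of 59 were below 0 and the median was 0.07. The members share sequence and libraries and are not independent of each other.

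**Figure D2:**
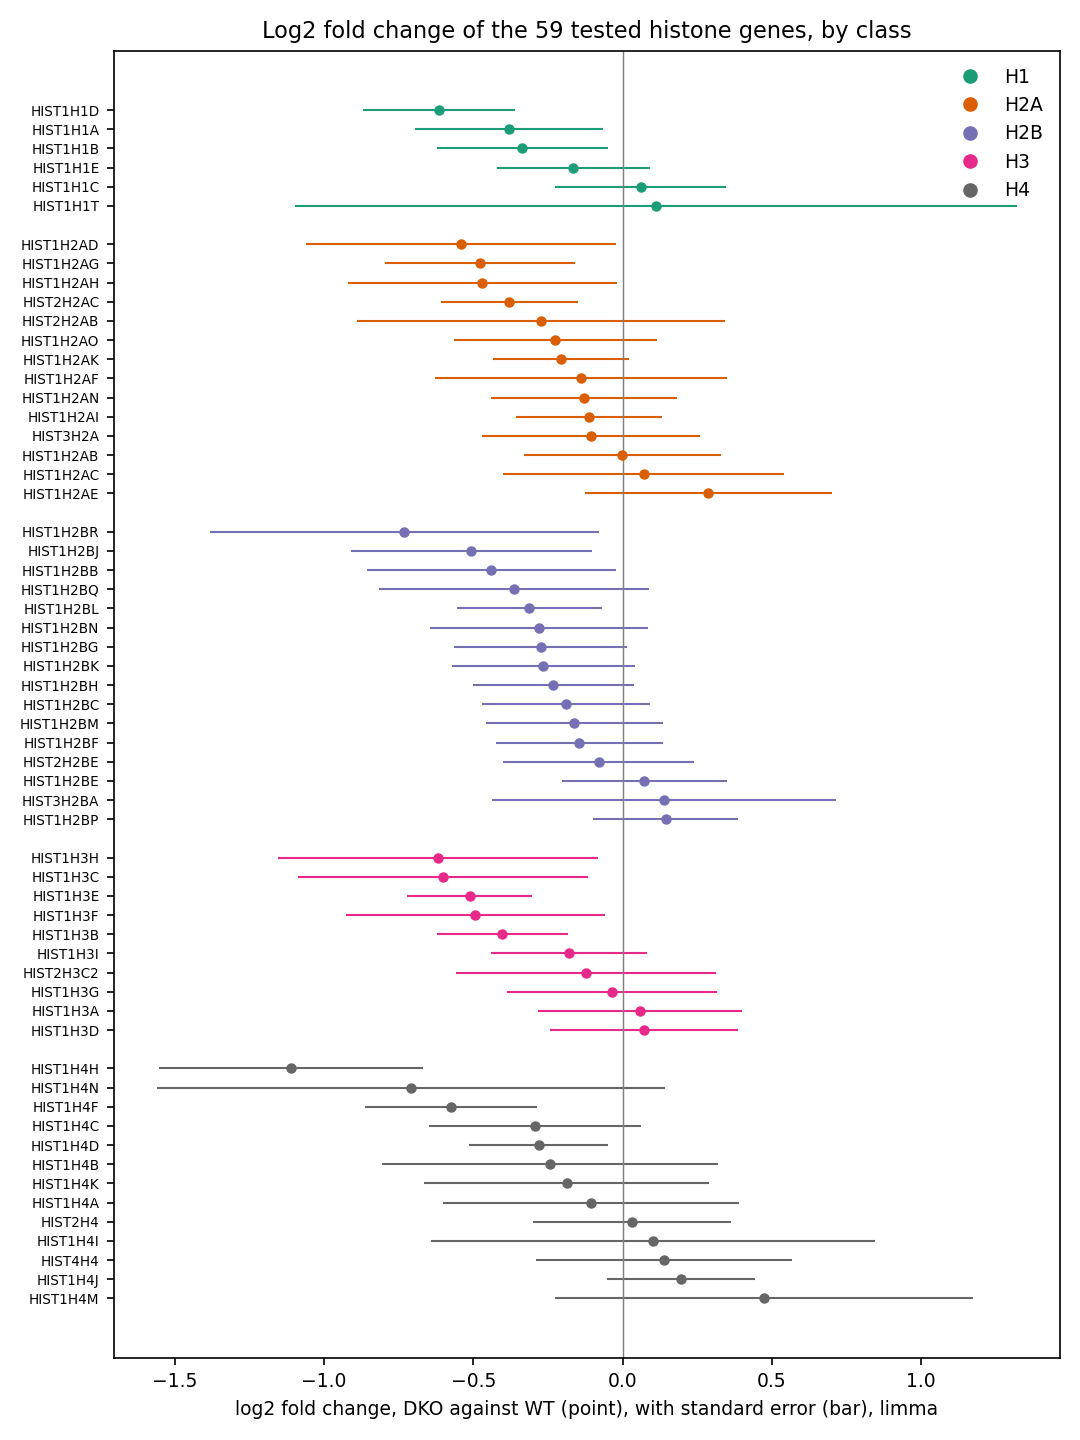
Log2 fold change of each of the 59 tested histone genes, DKO against WT, on the log2(value + 1) scale (points), with its standard error from limma (bars), sorted within class and named in capitals as in the table. Most points lie left of 0, and Hist1h4h at -1.11 lies farthest from it.

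The H1 genes code for linker histones, and 4 of 6 had a negative fold change (median -0.25). Hist1h1e was the highest, with 6583, 6116 and 8882 normalized counts in the WT libraries and 5113 and 7840 in DKO, and it took 41.4 to 46.2% of the class in every library. Its log2 fold change was -0.16 ± 0.26 (SE), and the DKO values lay below and within the WT range. Hist1h1b had 4329, 3544 and 5234 in WT and 2523 and 4630 in DKO, a log2 fold change of -0.34 ± 0.29. Hist1h1c, a linker histone also made outside S phase, had 2532, 1946 and 2515 in WT. Its DKO libraries lay on either side of that range, at 1743 and 3339, and the log2 fold change was 0.06 ± 0.29.

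Hist1h1d was 1 of the 3 members with an unadjusted p under 0.05. It had 1310, 1438 and 1930 normalized counts in the WT libraries and 825 and 1220 in DKO, so both DKO libraries lay below all 3 WT libraries. The log2 fold change was -0.62 ± 0.26, with an unadjusted p of 0.039 and an adjusted p of 0.823 by limma. Hist1h1a had 1126, 1213 and 2056 in WT and 849 and 1383 in DKO (-0.38 ± 0.32). Hist1h1t, the testis form, had 2.14, 11.3 and 61.5 in WT and 12.3 and 14.9 in DKO. It was low in all but WT replicate 3, and its SE of 1.21 was the largest of the family.

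Among the H2A genes, 12 of 14 tested had a negative fold change (median -0.17), and in none did the groups separate. Hist1h2ak alone took 63.1 to 68.0% of the class. It had 9347, 8443 and 12484 normalized counts in the WT libraries and 8202 and 9068 in DKO, a log2 fold change of -0.21 ± 0.23. Hist1h2ai had 1178, 1031 and 1653 in WT and 1092 and 1247 in DKO (-0.11 ± 0.24), with both DKO libraries inside the WT range. Hist2h2ac, of cluster 2, had 1279, 1039 and 1414 in WT and 825 and 1090 in DKO. Its log2 fold change was -0.38 ± 0.23, with an unadjusted p of 0.133 by limma, the smallest of the class. Hist1h2ag had 354, 288 and 571 in WT and 268 and 288 in DKO (-0.48 ± 0.32), and its second DKO library equalled the lowest WT library to within 1 normalized count.

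H2B was the class with the largest summed level, and 13 of its 16 tested genes had a negative fold change (median -0.25). Hist1h2bl, at 28.8 to 33.7% of the class, had 10185, 8112 and 12174 normalized counts in the WT libraries and 6994 and 9296 in DKO (-0.31 ± 0.24). Hist1h2bm, whose promoter is printed above, had 4376, 3115 and 5721 in WT and 3040 and 4798 in DKO (-0.16 ± 0.30). In both genes DKO replicate 1 was the lowest library and DKO replicate 2 lay inside the WT range. Hist1h2be had 3099, 3036 and 4524 in WT and 2862 and 4713 in DKO, so its DKO libraries were at once the lowest and the highest of the 5, and the log2 fold change was 0.07 ± 0.28. Hist1h2bj had 245, 153 and 383 in WT and 142 and 206 in DKO (-0.51 ± 0.40). The weakly counted Hist1h2br was the only H2B gene whose groups did not overlap, with 18.6 to 32.1 in WT and 14.0 and 14.9 in DKO.

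H3 was the least counted class, and 8 of its 10 tested genes had a negative fold change (median -0.29). Hist1h3e had 1291, 1108 and 1332 normalized counts in the WT libraries and 779 and 969 in DKO. Both DKO libraries lay below all WT libraries, and the log2 fold change was -0.51 ± 0.21, with an unadjusted p of 0.038 and an adjusted p of 0.823 by limma. Hist1h3b had 1279, 995 and 1254 in WT and 989 and 790 in DKO, with no overlap, although the first DKO value was close to the lowest WT value. Its log2 fold change was -0.40 ± 0.22, with an unadjusted p of 0.101 by limma, and DKO replicate 2 was the lower of the DKO pair. Hist1h3i had 741, 602 and 982 in WT and 601 and 747 in DKO (-0.18 ± 0.26). Hist1h3e held 23.8 to 30.4% of the class.

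The H4 genes were split most evenly, with 8 of 13 negative (median -0.19). Hist1h4d took 71.8 to 77.7% of the class, with 11956, 10031 and 14374 normalized counts in the WT libraries and 8806 and 11049 in DKO (-0.28 ± 0.23). Hist1h4c had 1020, 922 and 1582 in WT and 631 and 1374 in DKO (-0.29 ± 0.36), a wide gap between the DKO libraries. Hist1h4j had 590, 658 and 933 in WT and 817 and 815 in DKO (0.19 ± 0.25), and was among the 5 H4 genes that were not lower. Hist1h4f had 548, 344 and 562 in WT and 286 and 351 in DKO, a log2 fold change of -0.58 ± 0.29 with an unadjusted p of 0.077 by limma.

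Hist1h4h had the smallest unadjusted p of the family. It had 134, 92.9 and 76.9 normalized counts in the WT libraries and 34.2 and 59.5 in DKO, with no overlap. The log2 fold change was -1.11 ± 0.44, with an unadjusted p of 0.034 and an adjusted p of 0.823 by limma. Unlike most members it was lowest among WT libraries in WT replicate 3.

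Levels of different genes can be compared only per length, here as WT mean normalized counts per kilobase of GENCODE M21 exon model. On that scale Hist1h2bl (26659) and Hist1h2ak (25678) stood highest among the members described, ahead of Hist1h4d (10651), Hist1h2bm (8405), Hist1h2bb (6088) and Hist1h1b (5881). Hist1h1e, the leading H1 gene by counts, stood at 3727 per kilobase, below Hist1h1b. This order depends on the model lengths, 1930 bases for Hist1h1e and 743 for Hist1h1b. RefSeq gives 782 and 794, and on these Hist1h1e would stand above Hist1h1b. Likewise Hist1h4d has 1138 bases in the model and 402 in RefSeq. Hist1h2bl has 381 and 473, and Hist1h2ak 393 and 536. On RefSeq lengths Hist1h4d would stand above both. Hist1h3b (1897), Hist1h3i (1885) and Hist1h3e (1488) were the main H3 genes. Hist1h1d stood at 210, with a gene model of 7425 bases that is far longer than a typical histone mRNA.

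The histone genes of all classes tended to be high and low in the same libraries. WT replicate 3 was the highest of the 5 libraries for 42 of 59 genes (71.2%, against 23.0% of all genes). DKO replicate 1 was the lowest for 34 of 59 (57.6%, against 21.7%). By class, WT replicate 3 was highest for 5 H1, 11 H2A, 11 H2B, 7 H3 and 8 H4 genes, and DKO replicate 1 was lowest for 5, 8, 11, 3 and 7. DKO replicate 1 lay below the WT range for 35 of 59 genes (59.3%, against 26.4% of all genes). DKO replicate 2 lay within the WT range for 45 (76.3%, against 57.0%), below it for 7 and above it for 7 (11.9% each, against 21.5% of all genes each). DKO replicate 1 was lower than DKO replicate 2 for 52 of 59 genes. The median gene stood at 69.0% of its WT mean in DKO replicate 1 and at 97.4% in DKO replicate 2. Among WT libraries the median ratio of highest to lowest was 1.73 for histone genes and 1.59 for all genes.

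**Figure D3:**
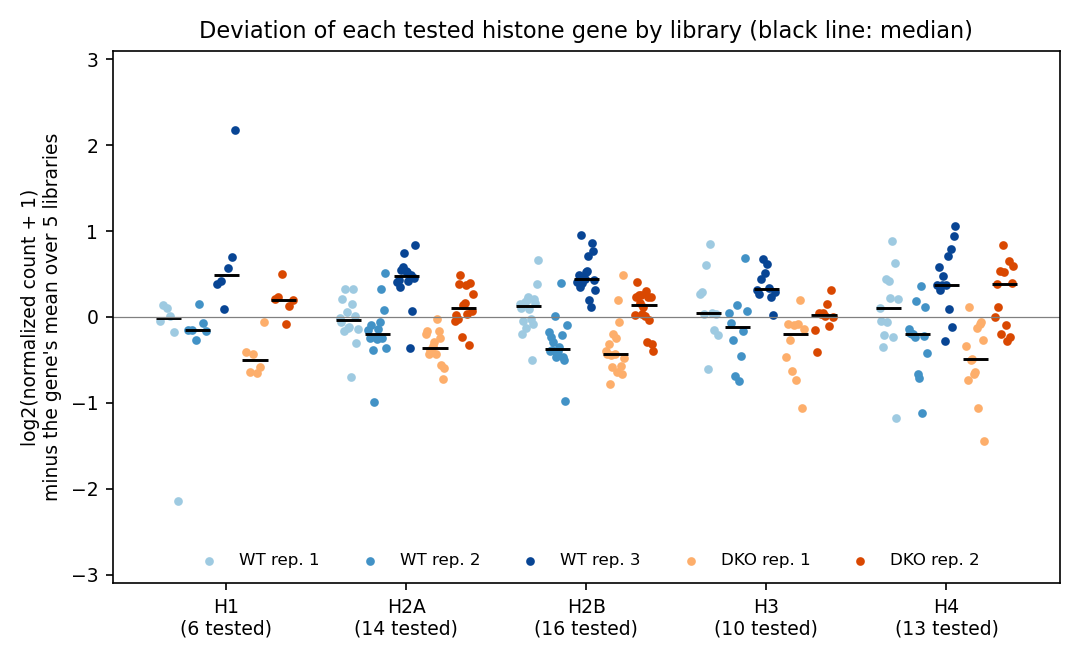
Each tested histone gene (point) as log2(normalized count + 1) minus that gene's mean over the 5 libraries, by class and library, with the median as a black line. WT replicate 3 has a median above 0 and DKO replicate 1 a median below 0 in every class, and the H1 points near 2 and -2 are the weakly counted Hist1h1t.

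The histone genes and other genes of S phase stood in the same order over the libraries. This order was not particular to S phase genes, since the 22 tested genes of histone mRNA processing and turnover had it too. The mean log2 deviation of the 59 histone genes was 0.01, -0.22 and 0.47 in WT and -0.39 and 0.12 in DKO. That of 47 S phase genes (DNA replication enzymes, licensing factors and cyclins) was 0.10, -0.19 and 0.24 in WT and -0.33 and 0.19 in DKO. For the 22 processing genes it was -0.01, -0.07 and 0.19 in WT and -0.14 and 0.03 in DKO. The 21 histone chaperone genes differed from this order only in that WT replicate 1 stood above DKO replicate 2. Over all 13242 genes tested the mean deviation was -0.001, 0.04 and -0.13 in WT and 0.10 and -0.01 in DKO, which is the reverse order. The sum of the 70 histone genes per summed S phase level was 0.729, 0.791 and 0.838 in WT and 0.764 and 0.713 in DKO, and the groups overlapped. This ratio spanned far less than the histone sum itself, which was 1.76-fold higher in WT replicate 3 than in DKO replicate 1. The mitochondrial ribosomal RNA share ranked the libraries as the histone sum did, apart from WT replicate 1 and DKO replicate 2, which changed places. The T cell and naive B cell sums given above were highest in the 2 libraries with the lowest histone sums. The part of these in the histone levels was not tested.

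**Figure D4:**
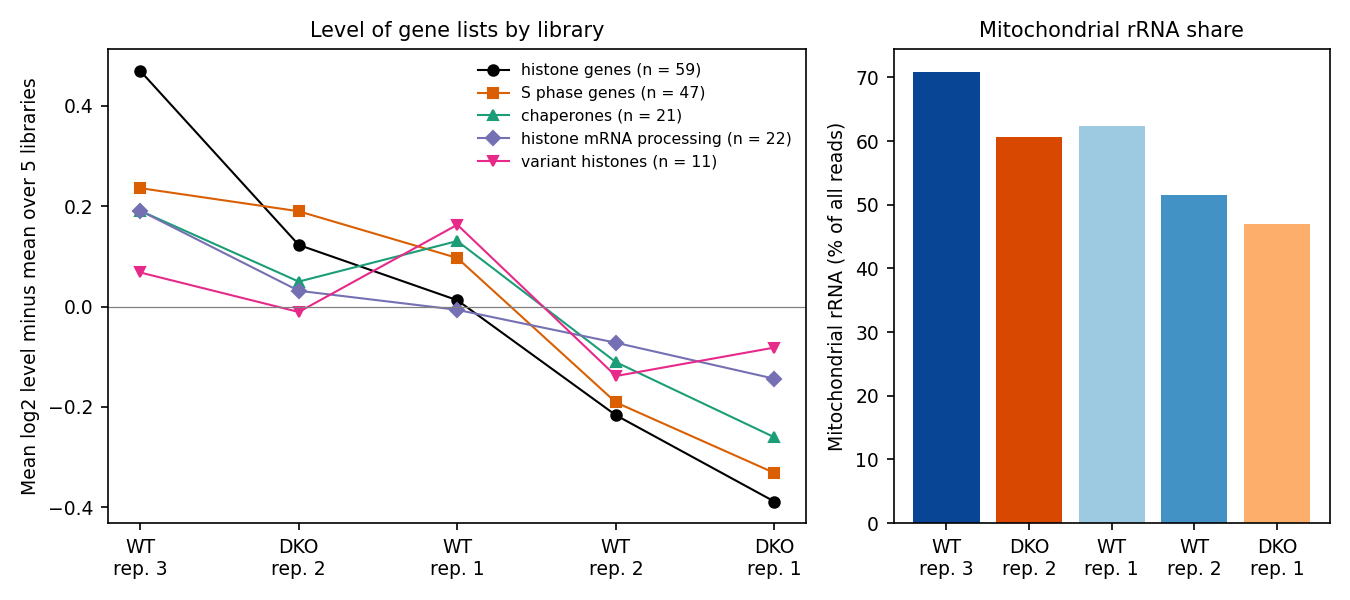
Left, mean log2(normalized count + 1) of the tested genes of each list minus its mean over the 5 libraries; right, share of all reads from mitochondrial ribosomal RNA. Libraries are ordered by the histone level, so the black line descends by construction; the S phase line descends with it from 0.24 to -0.33, and the variant histones span the narrowest range of about 0.3.

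Variant histone genes, which the name rule leaves out, ranged from -0.14 to 0.16 in mean log2 deviation over the libraries. The clustered genes ranged from -0.39 to 0.47. Of 12 variant histone genes 11 were tested, 7 with a negative and 4 with a positive fold change (median -0.13). None passed the adjusted threshold by limma, edgeR or DESeq2, against 0.0% of all genes by limma and 0.219% by DESeq2. At an unadjusted p under 0.05 by limma there were 0, against 6.06% of all genes. Cenpa, the centromeric H3, had 934, 796 and 1074 normalized counts in the WT libraries and 990 and 1377 in DKO (0.33 ± 0.24). H3f3b, an H3.3 gene, had 3893, 4713 and 3488 in WT and 3195 and 3485 in DKO (-0.26 ± 0.20), so its groups did not overlap, although the higher DKO value was close to the lowest WT value. H2afx, whose protein marks DNA breaks, had 5554, 4510 and 6526 in WT and 4849 and 4188 in DKO (-0.28 ± 0.22). The clustered genes summed to 2.39, 2.70 and 3.22 times the variants in WT and 2.36 and 2.81 times in DKO. This ratio, like that to the S phase genes, is of counts not divided by gene length, so it can compare libraries only.

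The genes that process and turn over histone mRNA were measured next, since they act on the stem-loop end shown above. Of the 22 tested, 16 had a negative and 6 a positive fold change (median -0.06). None passed the adjusted threshold by limma, edgeR or DESeq2, and 1 of 22 was lower at an unadjusted p under 0.05 by limma, against 2.37% of all genes. Casp8ap2 (FLASH), which is needed for cutting the histone pre-mRNA, had 7966, 5437 and 5308 normalized counts in the WT libraries and 4443 and 3073 in DKO. Its groups did not overlap, and the log2 fold change was -0.73 ± 0.26 with an unadjusted p of 0.019 by limma. It was highest in WT replicate 1 and lowest in DKO replicate 2, an order unlike that of the histone genes. Cpsf1, of the cleavage machinery, had 1084, 1489 and 1432 in WT and 828 and 1074 in DKO (-0.49 ± 0.23). In that gene too the groups did not overlap. Zcchc11, a uridylating enzyme, had 8515, 8805 and 6899 in WT and 10404 and 8460 in DKO (0.22 ± 0.21). Slbp had 3776, 3258 and 3804 in WT and 3255 and 3898 in DKO, and Npat, the coactivator of histone transcription, 2695, 1893 and 2014 in WT and 2146 and 2169 in DKO. Slbp and Npat were named after their values were seen, and in both the groups overlapped.

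Of 21 histone chaperone genes, 17 had a negative and 4 a positive fold change (median -0.14). Chaf1a, a subunit of the CAF-1 complex that loads new histones at the fork, had 1119, 929 and 1300 normalized counts in the WT libraries and 469 and 1037 in DKO (-0.66 ± 0.33). Its low library was DKO replicate 1, as for the histone genes. Daxx, which loads H3.3, had 887, 929 and 1169 in WT and 673 and 806 in DKO (-0.42 ± 0.22), with no overlap. Atrx, its partner, had 13983, 12755 and 5162 in WT and 8450 and 3779 in DKO (-0.78 ± 0.46), and was lowest in WT replicate 3 and DKO replicate 2 within their groups. Of the 47 S phase genes, 35 had a negative and 12 a positive fold change (median -0.17). In neither of these lists did a gene pass the adjusted threshold by limma, edgeR or DESeq2. Over all genes the share was 0.0% by limma and 0.219% by DESeq2. At an unadjusted p under 0.05 by limma there were 0 in either list, against 6.06% of all genes. Ccne1, a cyclin E, had 202, 358 and 254 in WT and 473 and 358 in DKO (0.64 ± 0.31). Ccne2, the other cyclin E, had 1246, 908 and 1247 in WT and 816 and 921 in DKO (-0.37 ± 0.23). Tyms, of thymidylate synthesis, had 2135, 1378 and 1732 in WT and 961 and 1502 in DKO (-0.52 ± 0.27). In these 3 genes the groups overlapped, in Ccne1 by less than 1 normalized count.

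Sequence shared with other genes limits what can be read for single members. Of all 50-base windows in a gene's longest GENCODE M21 transcript, the share also found in another gene was at least 80% for 20 of the 70 histone genes. Either strand and any annotated gene counted, so the share takes in overlapping genes at the same place as well as near-identical copies. The sources used here do not say how reads that fit several genes were counted. The median share was 41.9% for members with a mean of at least 1000 normalized counts and 71.5% for tested members below 100. For the 5 members listed at 0 in every library it was 100%. These were Hist1h2aa (23.8%) and Hist2h2aa1, Hist2h2aa2, Hist2h3b and Hist2h3c1 (100% each). With other histone genes alone the share was 2.35% for Hist1h2aa, 89.2% for Hist2h2aa1 and 100% for Hist2h2aa2. It was 79.7% for Hist2h3b and 34.7% for Hist2h3c1. A 0 allows up to 3 reads, which is 2.48 to 3.21 normalized counts depending on the library. A further 6 members were above 0 with a mean below 10, from Hist2h2bb at 0.55 to Hist3h2bb-ps at 8.60.

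**Figure D5:**
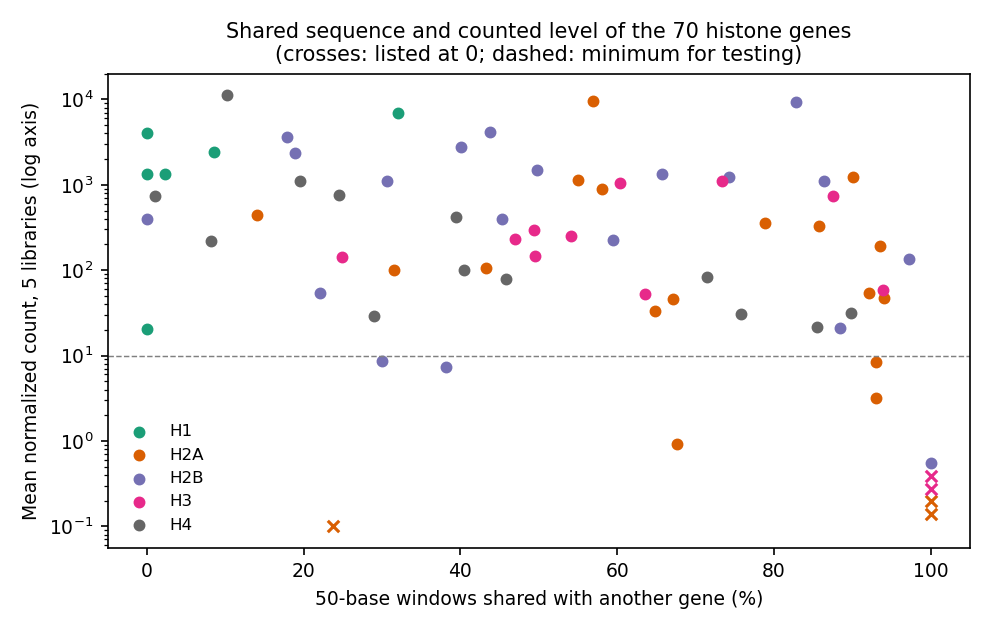
Mean normalized count over 5 libraries (log axis) of the 70 histone genes against the share of 50-base windows also found in another gene; crosses at the foot are genes listed at 0, spaced apart only to be visible, and the dashed line is the minimum of 10. Of 5 crosses 4 stand at 100%, and all H1 genes stand below 40%.

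The fold changes were also counted by this share. Among the 31 tested members with under 50% of windows shared, 18 had a negative fold change (median -0.11). Among the 28 with 50% or more, 27 did (median -0.27), and all 11 H2A, 7 H2B and 6 H3 genes of that kind were negative. The difference between these subsets was not tested. DKO replicate 1 stood at a median of 69.3% of the WT mean in the first and 68.4% in the second, while DKO replicate 2 stood at 106% and 95.8%. Hist1h1e and Hist1h2be also share 496 exon bases of their models, and both lie on the minus strand, so reads from that stretch cannot be assigned to either gene by strand. All 20 H2A genes overlap an exon of a gene on the opposite strand in this annotation. Reads there could be told apart only by strand, and the sources used here do not give the strand setting.

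Position in the genome and the end of the transcript split the family as well. In cluster 1, 40 of 51 tested genes had a negative fold change (median -0.23), and in clusters 2 to 4, 5 of 8 (median -0.09). Where the longest transcript ran on for at least 300 bases past the stem-loop, 9 of 17 were negative (median -0.11). With under 300 bases it was 17 of 22 (median -0.27), and with no exact stem-loop in that transcript 19 of 20 (median -0.20). These subsets overlap with those by shared sequence and were not tested against each other.

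Among the 62 genes with a RefSeq promoter, 10 pairs of an H2A and an H2B gene stood head to head with starts 164 to 281 bases apart. Genes without a promoter there could not be paired. The 2 genes of a pair were often counted unequally per kilobase. In WT, Hist1h2ak stood at 25678 normalized counts per kilobase and its partner Hist1h2bn at 3087. Hist1h2bl stood at 26659 and its partner Hist1h2ai at 3275, while Hist1h2ah stood at 153 and Hist1h2bk at 2762. By these counts either histone could be the higher of its pair, and these examples were chosen after their values were seen. The share of windows also found in another gene was 57.0% for Hist1h2ak and 86.4% for Hist1h2bn. It was 82.8% for Hist1h2bl, 90.1% for Hist1h2ai, 92.1% for Hist1h2ah and 74.2% for Hist1h2bk. How reads that fit several genes were counted is not known, and its part in these levels was not tested.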

How the data were processed

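For 5 libraries (3 WT, 2 DKO) the labels' protocols give amplification with NuGEN's Ovation kit, which primes with both oligo(dT) and random primers and so can reach mRNAs without a poly(A) tail, then paired-end HiSeq2500 sequencing. CASAVA 1.8.2, TopHat2 2.0.4, Cufflinks 2.0.2 and mm9 are named in the submitters' processing notes. The sources used here do not give the counting tool, annotation, strand setting, treatment of reads that fit several genes, or origin of the scaling. The deposited signal is a read count divided by 1 factor per library. Whole reads were recovered for 100% of values above 0, rounded, within 0.01 of a whole number. Amplified reads are not independent molecules, and the limit for a 0 covers counting error only.

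Libraries were grouped by genotype label. Values were tested as log2(value + 1) with limma 3.58.1 (R 4.3.3), two-sided, with a mean-variance trend, for 13242 genes with a mean of at least 10, and adjusted p-values (Benjamini-Hochberg) were read at 0.05, with 3 residual and 5.92 prior degrees of freedom. Fold changes on this scale understate those of low genes. Alternatives were tests of the whole reads (edgeR 4.0.16, DESeq2 1.42.0), pseudocounts, minimum values, scalings, weights, a replicate block and leaving out libraries. The tests were tried on simulated data. The members, lists and tests were chosen with earlier results of these data known. Values per library are given for the 3 highest members and the 2 with the smallest p of each class, and the 3 with the smallest p of each related list; other genes named with values were chosen after these were seen. All 70 members matched GENCODE M21 by name and RefSeq by synonym, both of another build than mm9.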

Additional observations from a re-analysis of the deposited data

How the results depend on the processing

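The DKO against WT test called 0 histone genes under every setting run. At an unadjusted p under 0.05 it counted 0 of 59 without DKO replicate 1 (2.32% of all genes) to 6 of 59 without WT replicate 2 (10.2%, against 8.34% of all genes), with 5 of 59 without DKO replicate 2 (8.47%, against 3.76%). Over all genes it called 0, against 29 by DESeq2, 2 with library weights, 1 with the mitochondrial ribosomal RNA share as covariate, and 0 to 1 with 1 library left out (1 without WT replicate 2 and 1 without DKO replicate 1). With the replicate number as a block, which leaves WT replicate 3 out of the comparison, it called 36. The labels give same-numbered libraries only a number in common. Their deviations from the group mean correlated at r = 0.00 and r = -0.28 over 13242 genes. With 2 DKO libraries the deviations of one mirror those of the other, so these values cannot decide whether libraries were paired. Under the block 31 of 59 histone genes were lower, the median was -0.01, and 3 genes turned positive (Hist1h2ai 0.083, Hist1h2bm 0.049, Hist1h3i 0.0055).

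The direction of the family depended on single libraries. With 1 library left out, 28 (without DKO replicate 1) to 52 (without DKO replicate 2) of 59 were lower, with medians of 0.033 and -0.49. The summed H1 level in DKO ranged from 65.3 to 109% of WT and that of H2B from 68.6 to 102%. The lowest and highest log2 fold changes were -0.47 and 0.14 for Hist1h1e, -0.77 and 0.10 for Hist1h1b, -0.41 and 0.53 for Hist1h1c, -0.26 and 0.083 for Hist1h2ai, -0.49 and 0.17 for Hist1h2bm, -0.29 and 0.43 for Hist1h2be, -0.35 and 0.0055 for Hist1h3i, and -0.85 and 0.27 for Hist1h4c.

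The next settings were chosen after seeing the data. With the mitochondrial share as covariate 23 of 59 were lower, the median was 0.074, and 5 genes turned positive (Hist1h1e 0.094, Hist1h2ai 0.10, Hist1h2bm 0.20, Hist1h3i 0.069, Hist1h4c 0.12). Without WT replicate 2 and DKO replicate 1 together, 39 of 59 were lower, with Hist1h1e at 0.036 and Hist1h4c at 0.11. The cause of these shifts was not tested. The other pseudocounts, minimum values, scalings and count-based tools left the median negative. With 3 against 2 libraries and a median SE of 0.34 among members, differences of the size seen could not be told from the spread between libraries.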
